A study of Mus musculus with 4 samples.

Results

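The Furin and Man2a2 locus was taken as mouse chromosome 7 from 87.48 to 87.57 Mb in the mm9 assembly, a region that also holds the starts of Unc45a, Hddc3 and Fes. Its members were the CG sites with at least 5 reads in each of the 4 libraries, after the calls of both strands were added together. Of 1786 CG sites listed there, 555 qualified, out of 2638319 such sites in the whole data set. Man2a2 was read from 87.494 to 87.516 Mb, with 117 covered of 433 listed CG sites, and Furin from 87.533 to 87.551 Mb, with 99 of 459.

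The study compared DNA methylation in 2 sperm fractions of C57BL/6 mice by targeted bisulfite sequencing (TGBS), with 2 libraries each of swim-up sperm and of HRCS. Swim-up sperm are selected for their motility. HRCS, sperm heads in which histone replacement was complete, were recovered from total sperm of the caudal epididymis and vas deferens as the pellet of 82% Percoll after a mild sonication that removed the tails. Nothing in the labels says whether the libraries came from separate animals. The p-values below thus set differences against the spread between libraries, which may not be that between animals. Those of Fisher's exact test leave out this spread too. The libraries held 71379227 to 89403347 CG calls in all, and the median covered site of the locus had 19 to 24 reads per library.

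Furin encodes a proprotein convertase that cleaves precursors of growth factors and receptors in the secretory pathway. Man2a2 encodes an alpha-mannosidase of the Golgi that trims N-glycans. In sperm most histones are exchanged for protamines, the remaining nucleosomes are often found at CpG-rich promoters, and such promoters are mostly unmethylated while the rest of the genome is highly methylated. The study drew this locus as an example in a map of where H3, a core histone, remained; those H3 reads were not analysed here.

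Both genes lie on the minus strand, so upstream means towards higher coordinates. Furin has 2 starts among the RefSeq promoter sequences of GRCm38.p6, which were found in the mm9 tables by the spacing of their CGs, each at 1 place in the genome. The starts lay at 87547698 and 87550322 of mm9, 2624 bp apart. The 250 bases before each start are printed 5′ to 3′ on the minus strand, with CG in capitals, because they differ in CG number and in how far the libraries covered them; in GRCm38.p6 they are chr7:80402813-80403062 and chr7:80405437-80405686.
Furin start in the CpG-dense DNA: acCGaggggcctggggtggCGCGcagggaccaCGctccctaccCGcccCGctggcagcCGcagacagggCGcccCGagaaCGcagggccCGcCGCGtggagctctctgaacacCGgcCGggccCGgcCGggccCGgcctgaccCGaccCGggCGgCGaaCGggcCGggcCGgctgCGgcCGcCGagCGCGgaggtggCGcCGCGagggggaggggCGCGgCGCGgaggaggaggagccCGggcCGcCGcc
Furin upstream start: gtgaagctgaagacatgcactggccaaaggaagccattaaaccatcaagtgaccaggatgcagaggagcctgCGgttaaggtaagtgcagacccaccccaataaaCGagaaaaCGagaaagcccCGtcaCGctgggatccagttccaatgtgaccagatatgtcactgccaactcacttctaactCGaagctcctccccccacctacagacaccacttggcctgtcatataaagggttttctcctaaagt
The first sequence has 40 CGs and a GC content of 83.2%, against 6 CGs and 50.4% in the second. Of 32851 RefSeq promoter sequences of 300 bases, only 0.715% have as many CGs as the 51 of the CpG-dense Furin start, while the upstream start, with 7, is at the median. Man2a2 has no entry among these sequences, and its start was represented by 1 kb around the upper end of its interval, a choice made after the levels had been seen and therefore not tested.

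Methylation at Man2a2 was divided between a methylated gene and an unmethylated start. From the lower end of the interval to 87515157, the 78 covered sites had mean levels of 96.4%, 96.4%, 95.8% and 95% in swim-up replicate 1, swim-up replicate 2, HRCS replicate 1 and HRCS replicate 2, the order used for all values by library. All but 1 of these sites were above 75%. The level then fell from 76.9% at 87515017 to the low values that began 141 bp further on, at 87515158.

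The unmethylated stretch at the Man2a2 start reached from 87515158 to 87516993, 1836 bp with 130 CG sites, of which 50 were covered. Such a stretch was defined as at least 10 successive covered sites with a mean level of at most 50% and at most 500 bp between neighbours. The levels of this one were 0.616%, 1.20%, 0.891% and 1.89%, and 25 of the 50 sites had no methylated call in any library. The highest mean of a site over the 4 libraries was 6.42%. The pooled calls of swim-up replicate 1 gave 0.837% (95% Wilson interval 0.455 to 1.53) and those of HRCS replicate 2 gave 1.79% (1.16 to 2.75). Such intervals cover only the counting error of independent calls. Reads copied by PCR are not independent, nor are calls of neighbouring sites on the same read, so intervals of pooled calls may be too narrow. The site 134 bp past its end, 87517127, was at 68.0%. In 3 libraries the stretch had the same ends, and in swim-up replicate 1 it ran on to 87517127, where 5 of 11 reads were methylated.

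In the 1 kb around the upper end of the Man2a2 interval, from 87515500 to 87516500, the 38 covered of 116 CG sites had levels of 0.334%, 0.689%, 0.886% and 1.72%. The means were 0.511% ± 0.251 (SD, n = 2) in the swim-up fraction against 1.30% ± 0.591 (SD, n = 2) in HRCS. At these covered sites each HRCS value exceeded each swim-up value; no test was made, as stated above. The difference of 0.793 points became 0.375 without HRCS replicate 2, 1.21 without HRCS replicate 1 and 0.429 at sites with at least 20 reads. The 78 sites of this region below the minimum of reads were also low, with 16 methylated of 1508 calls over the 4 libraries, or 1.06%. Over all 116 CG sites the methylated calls were 11 of 1185, 14 of 1359, 14 of 1479 and 14 of 1285, and by this measure the fractions overlapped.

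Furin was methylated at the 11 covered sites deeper in the gene and unmethylated around its CpG-dense start. Between 87.533 Mb and position 87546719 the gene was thinly covered, with 11 of 223 CG sites, all from 87543749 to 87545670. These had mean levels of 96.5%, 96.9%, 97.0% and 90.2%. The lowest site of HRCS replicate 2, 87544925, had 3 of 6 reads methylated. A pair of unmethylated stretches followed. The first, from 87546720 to 87547051, lay 647 to 978 bp inside the gene from the CpG-dense start and held 30 covered sites at 2.70%, 0.175%, 2.75% and 2.58%. The second, from 87547814 to 87548586, lay 116 to 888 bp upstream of that start and held 40 covered of 42 sites at 2.29%, 4.41%, 2.67% and 2.10%. In all 4 libraries the second stretch had the same ends.

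The 762 bp between both Furin stretches, which contain the start itself, had no covered site although 131 CG sites lie there. Reads were few but present. Over the 4 libraries these sites gave 27 methylated of 1335 calls, or 2.02% (95% Wilson interval 1.39 to 2.93). With this gap included, the low DNA at Furin spanned 1867 bp with 203 CG sites, 10.9 per 100 bp, against 7.08 per 100 bp in the stretch at Man2a2. Its 70 covered sites had levels of 2.47%, 2.59%, 2.71% and 2.31%.

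The 300 bases around the CpG-dense Furin start, from 87547649 to 87547948, had 18 covered of 51 CG sites. Their levels were 0.926%, 4.83%, 2.20% and 1.76%. The mean was 2.88% ± 2.76 (SD, n = 2) in the swim-up fraction against 1.98% ± 0.314 (SD, n = 2) in HRCS, a difference of -0.900 percentage points (HRCS minus swim-up; exact permutation test over libraries, two-sided, p = 1). The HRCS values lay between both swim-up values. Without swim-up replicate 2, which was the highest, the difference was 1.05 points and so had the opposite direction.

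**Figure D1:**
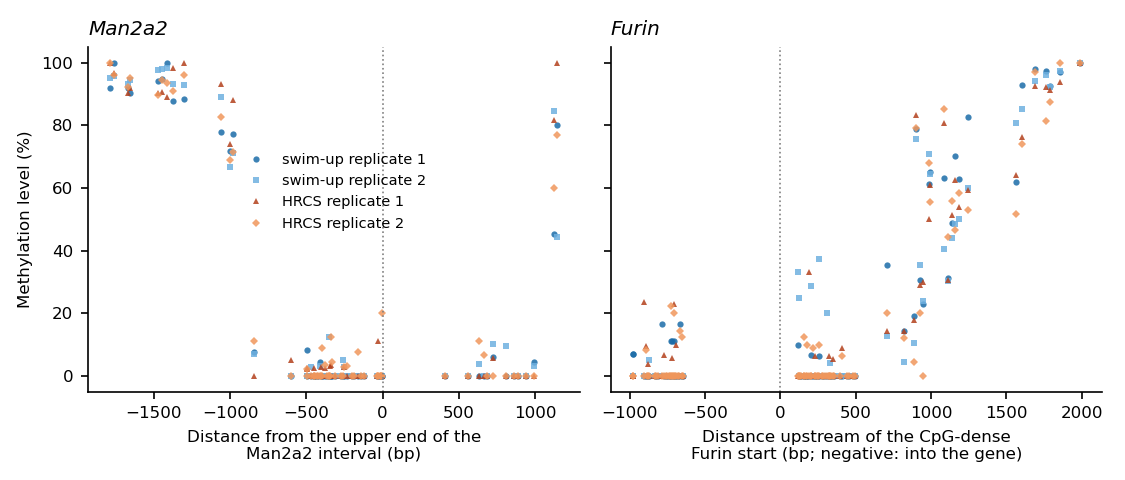
Methylation level (%) of each covered CG site in each of the 4 libraries, at Man2a2 (left, against the distance in bp from the upper end of its interval) and at Furin (right, against the distance upstream of the CpG-dense start); dotted lines mark the zero of each axis. The level rises within 141 bp at the border of the Man2a2 stretch inside the gene. Past the upper end of the Man2a2 stretch, the next covered site has a mean of 68.0% over the libraries. Upstream of Furin, the level passes through intermediate values before it mostly exceeds 90%.

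Not all borders of the stretches could be placed, so the sides of both genes were not compared. Inside Furin, the nearest covered site, 87545670, lay 1050 bp from the first stretch. Past the upper end of the Man2a2 stretch, the site at 134 bp was at 68.0%. Upstream of Furin, 12 sites from 87548602 to 87549260 had intermediate levels, with means of 56.6%, 52.0%, 54.7% and 51.5% in the 4 libraries and means of single sites over the libraries between 19.2% and 79.3%. Neighbouring sites differed within this slope. The site 87548586, 888 bp upstream of the start, had levels of 19.2%, 10.5%, 17.8% and 4.3%, and the site 16 bp further on, 87548602, had 78.9%, 75.6%, 83.3% and 79.2%. The next one, 87548622, was back at 30.6%, 35.3%, 29.0% and 20.0%. The 4 libraries thus shared the order of these sites, with 15 to 57 reads behind each value.

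Beyond the slope, the 6 sites from 87549302 to 87549686 had means of 96.3%, 94.2%, 91.0% and 90.0%. Highly methylated DNA thus began between the starts of Furin, 1604 bp upstream of the CpG-dense one. The upstream start itself could not be measured: none of its 7 CG sites was covered, and 5 calls were made there in all.

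Neighbouring genes gave a measure of what the 2 starts have in common with others nearby. The 300 bases around the start of Unc45a, a chaperone of myosin, had all 25 CG sites covered, at 0.922%, 0.425%, 1.36% and 0.823%. At Hddc3, 15 of 20 sites were covered, at 0.708%, 1.11%, 1.90% and 0.606%. The start of Fes, a tyrosine kinase gene between Man2a2 and Furin, had no covered site, and its 15 CG sites gave 0 methylated of 18 calls, from 1 library of each fraction. If a count of 0 is taken to allow up to 3 calls, this allows a share of up to 16.7%. That limit treats each call as independent. Calls at neighbouring CG sites can come from the same read, so the limit may be higher. From 736 to 1691 bp inside Fes, however, 28 sites formed a stretch of 956 bp at 14.7%, 8.60%, 10.6% and 10.1%, where no site was free of methylated calls. That stretch was more methylated than those at Man2a2 and Furin in every library.

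**Figure D2:**
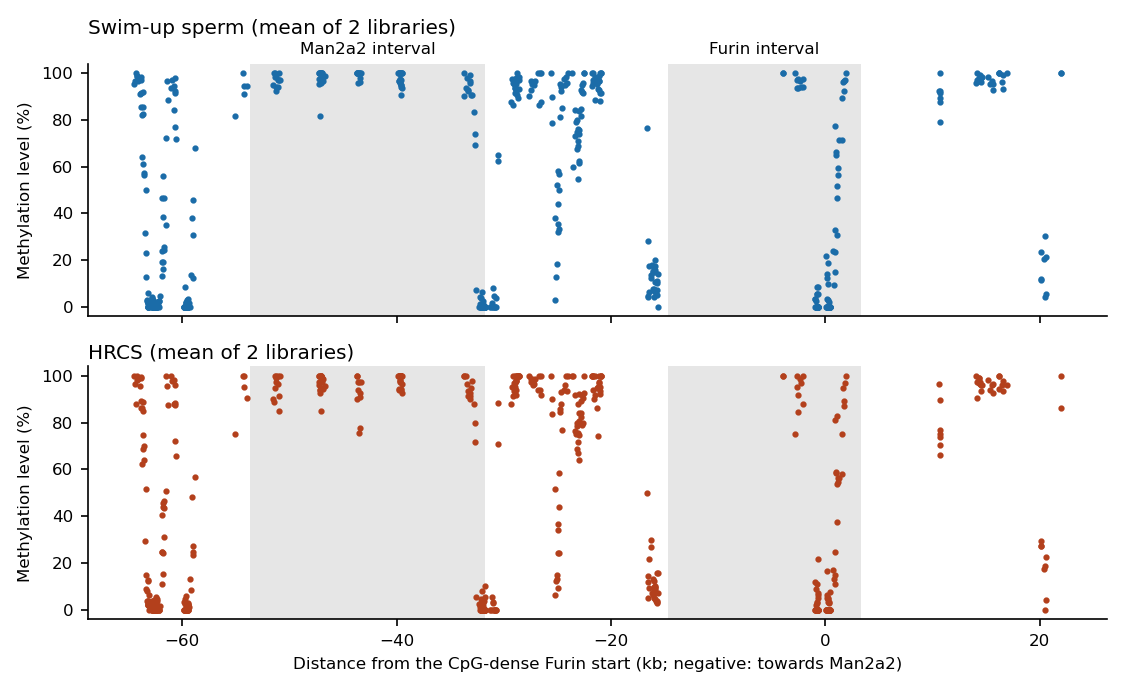
Mean methylation level (%) of the 555 covered CG sites in swim-up sperm (top) and HRCS (bottom), each the mean of 2 libraries, against the distance in kb from the CpG-dense Furin start; grey bands mark the intervals of Man2a2 and Furin. Both fractions show the same low sites at the upper end of Man2a2 and around the Furin start, and levels mostly over 75% elsewhere in both gene intervals.

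The distribution of levels was bimodal. Of the 555 sites, 259 were at most 25% methylated, 21 were over 25 to 50%, 28 were over 50 to 75% and 247 were above 75%. For comparisons the sites were grouped into windows of 200 bp with at least 3 covered sites, which gave 82 windows in the locus and 316993 in the whole data set. In the locus 29 of 82 windows (35.4%) were at most 25% methylated and 43 (52.4%) were above 75%, against 50.9% and 40.3% of all windows.

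The windows with the most CG sites were unmethylated, while those with few CG sites were mixed. All 8 locus windows with 15 or more listed CG sites were at most 25% methylated, where the shares over all windows were 97.4% for 15 to 19 CG sites and 99.7% for 20 or more. Of the 49 windows with 3 to 5 CG sites, 11 (22.4%) were that low, against 28.6% of all windows of that number. Of the 17 windows with 6 to 9 CG sites 3 (17.6%) were, against 59.1%, so that between these classes the share did not rise in the locus as it did over all windows. The single methylated window among the 8 with 10 to 14 CG sites lay inside Man2a2, from 87508001 to 87508200. Its 14 sites, all covered, had levels of 98.2%, 95.3%, 98.1% and 97.8%, while the windows with as many CG sites at the starts of both genes were below 3% in the mean over the 4 libraries.

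**Figure D3:**
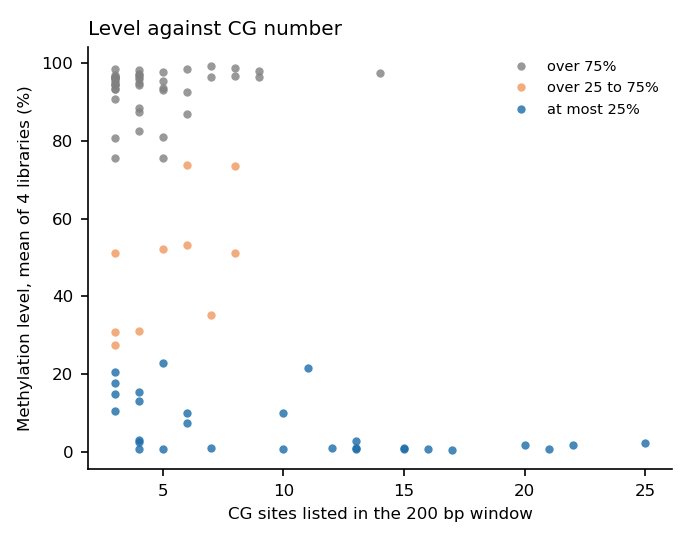
Mean methylation level over the 4 libraries (%) of the 82 windows of 200 bp against the number of CG sites listed in each; colours give the level class. All windows with 15 or more CG sites are low, and 1 window with 14 CG sites, inside Man2a2, is at 97.4%.

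Swim-up sperm and HRCS had nearly the same mean site level over the locus, while the pooled calls were lower in HRCS. The 555 sites averaged 48.6% and 48.0% for swim-up against 48.1% and 48.1% for HRCS, or 48.3% ± 0.434 (SD, n = 2) and 48.1% ± 0.0106 (SD, n = 2). The difference of -0.216 points lay within the distance of the swim-up replicates from each other (two-sided exact permutation test, p = 1). In the Man2a2 interval the levels were 64.4%, 64.5%, 64.2% and 64.0%, both HRCS libraries lying lower (difference -0.404 points, exact permutation p = 0.333, where 0.33 is the smallest p that 2 against 2 libraries can give). In the Furin interval they were 25.2%, 24.6%, 24.8% and 23.4%, with overlapping fractions (difference -0.791 points, exact permutation p = 0.667). Leaving out HRCS replicate 2 brought the Furin difference to -0.0487 points, and leaving out HRCS replicate 1 to -1.53 points. At sites with at least 20 reads the differences of the locus and of Man2a2 turned, to 0.286 and 0.457 points. When the calls were pooled over sites in place of averaging site levels, the differences were -2.18, -2.25 and -4.18 points for the locus, Man2a2 and Furin. By this measure the fractions did not overlap for the locus, with 50.9% and 52.4% for swim-up against 49.2% and 49.7% for HRCS, nor for Furin, with 38.9% and 37.7% against 32.9% and 35.2% (exact permutation p = 0.333 for each). Pooled calls weight each site by its reads, so they also move with where the reads fell. At the covered sites of the Furin interval, the low DNA of 1867 bp held 949 of 1894 and 883 of 1730 swim-up calls. In the HRCS libraries it held 1058 of 1824 and 797 of 1518 calls. How much of the pooled difference came from this was not tested.

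No window of the locus passed the test between the fractions. The test was edgeR's quasi-likelihood test on the methylated and unmethylated calls of all windows, with Benjamini-Hochberg adjustment over all of them. It called 0 of the 82 locus windows at an adjusted p of 0.05, against 9 of 316993 windows or 0.00284%, and the lowest adjusted p in the locus was 0.680. At an unadjusted p under 0.05 there were 7 locus windows (8.54%), 5 lower and 2 higher in HRCS, against 4.6% of all windows, 2.39% lower and 2.22% higher. The libraries of the fractions did not overlap in 27 locus windows (32.9%), 16 lower and 11 higher in HRCS, and in 32.7% of all windows, 16.1% lower and 16.6% higher. The fractions' means were over 10 points apart in 5 locus windows (6.10%), against 3.18% of all windows. By site, the fractions did not overlap at 114 of 555 sites (20.5%), 59 lower and 55 higher in HRCS, against 15.8% of all sites, 7.83% lower and 7.98% higher. At 10 of these sites (1.80%) the means were also over 20 points apart, against 1.41% of all sites. The mean absolute difference between libraries over the 555 sites was 4.90 points between the swim-up replicates, 5.33 between the HRCS replicates and 5.09 to 6.00 across fractions.

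**Figure D4:**
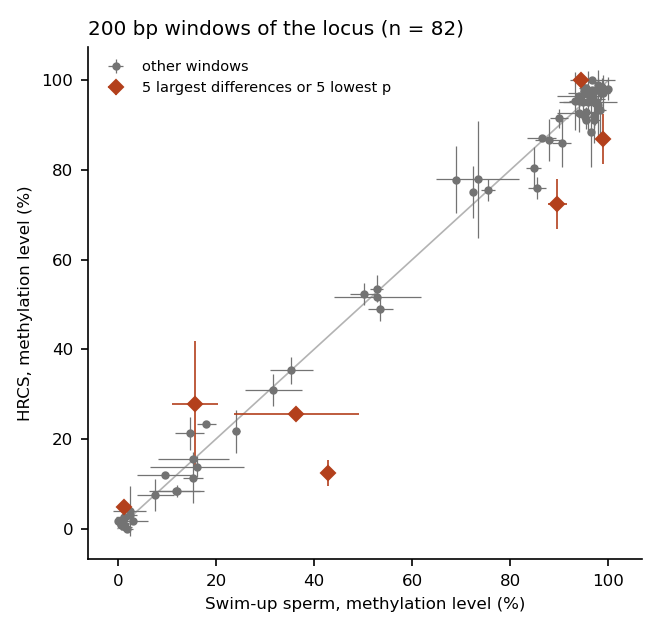
Mean methylation level (%) of the 82 windows of 200 bp in HRCS against swim-up sperm; bars are the SD of 2 libraries and diamonds mark the windows with the 5 largest differences or the 5 lowest p. Most windows lie along the line of equal levels, and the window with 42.8% in the swim-up fraction against 12.4% in HRCS lies farthest from it.

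The windows with the largest differences lay away from the Man2a2 start and the CpG-dense Furin start. Levels there were close to the floor in the swim-up fraction, so a large fall in HRCS could not occur at these starts. The largest was 87522601 to 87522800, between Man2a2 and Fes, with 42.1% and 43.5% in the swim-up fraction against 10.3% and 14.4% in HRCS. Its difference of -30.5 points had an unadjusted p of 0.00379 and an adjusted p of 1 in edgeR's test. It rested on 73 to 98 calls per library, and most of the difference on a pair of sites 10 bp apart. At 87522714 the swim-up libraries had 9 of 19 and 13 of 23 reads methylated and the HRCS libraries 2 of 17 and 4 of 27. At 87522724 they had 9 of 15 and 9 of 16 against 0 of 10 and 4 of 22. The third site of the window, 87522646, had levels of 19%, 17.6%, 19.1% and 10.2%.

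These sites belonged to a stretch of 358 bp with 11 CG sites, from 87522471 to 87522828, at 35.3%, 33.3%, 25.4% and 23.8%. Its levels were thus intermediate, unlike those of the stretches at the gene starts. Its first site, 87522471, was at 2.3%, 3.5%, 10.2% and 2.4%, and the next, 26 bp on, at 41.8%, 34.5%, 52.4% and 51.0%, so that neighbouring sites differed here too. At that second site the HRCS libraries were the higher ones.

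**Figure D5:**
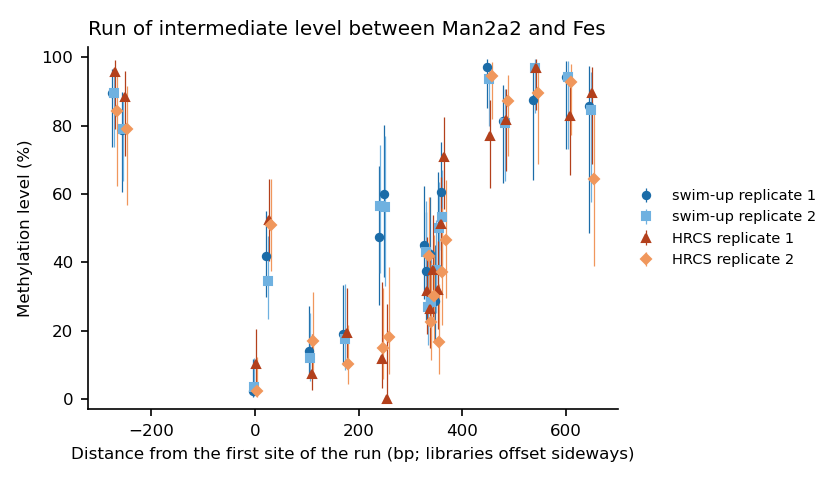
Methylation level (%) of the CG sites in and around the run of 358 bp between Man2a2 and Fes in each of the 4 libraries, against the distance in bp from its first site; bars are 95% Wilson intervals. The fractions stand apart at a pair of neighbouring sites and overlap at most of the others.

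Inside Man2a2, the window 87504201 to 87504400 had the lowest p. Its levels were 99.2% and 98.5% in the swim-up fraction against 83.0% and 90.9% in HRCS, a difference of -11.9 points (edgeR, unadjusted p = 0.0002, adjusted p = 0.680). The sites 87504241 and 87504249 were lowest, at 73.7% and 77.8%, and 71.4% and 84.2%, in HRCS. Upstream of Furin, the window 87558401 to 87558600 had 88.2% and 90.9% in the swim-up fraction against 76.3% and 68.5% in HRCS, a difference of -17.2 points (edgeR, unadjusted p = 0.00706, adjusted p = 1). In the other direction, 87519001 to 87519200 had 94.7% and 94.0% against 100% and 100%. The window 87484401 to 87484600, in the low stretch that holds the Unc45a start, had 1.71% and 0.810% against 4.39% and 5.31% (edgeR, adjusted p = 1 for both windows). The last windows among the 5 largest differences, 87567801 to 87568000 at 12.1 points and 87531001 to 87531200 at -10.9 points, had overlapping or widely spread libraries. The first ranged from 2.12 points without HRCS replicate 2 to 22.0 when HRCS replicate 1 was left out, and the second from -1.84 points without swim-up replicate 2 to -19.9 when swim-up replicate 1 was left out.

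Of the 82 windows, 10 (12.2%) were of intermediate level. There were 4 (4.88%) over 25 to 50% and 6 (7.32%) over 50 to 75%, against 4.57% and 4.21% of all windows. The 5 nearest to 50% lay at borders or in the intermediate run. One was the border of the Man2a2 stretch inside the gene, 87515001 to 87515200, at 52.2%, 48.2%, 54.0% and 50.5%. A pair of them made up most of the slope upstream of Furin: 87548601 to 87548800 had 53.7%, 51.8%, 55.7% and 51.3%, and 87548801 to 87549000 had 59.2%, 46.6%, 51.6% and 51.7%. The others were 87522801 to 87523000 at 55.4%, 51.7%, 51.0% and 47.0%, and 87485801 to 87486000, past Unc45a, at 32.3%, 38.4%, 37.4% and 33.2%. In none of these 5 windows did edgeR's unadjusted p fall under 0.05 (0.377 to 0.993).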

How the data were processed

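The authors captured about 500 bp fragments of sperm DNA with the SureSelectXT Mouse Methyl-Seq kit, made PBAT libraries (post-bisulfite adapter tagging) and mapped single reads to mm9 with BMap. Each deposited table lists per CG site and strand the count of methylated reads and the read total; the deposited counts are not normalized. Strands were added together (89% to 90% of calls were on the minus strand), and a site was kept if each library covered it by 5 or more reads. Capture, PCR copies and incomplete conversion can all move low levels, and which libraries shared a sequencing lane is not given in the sources used here.

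Site levels were averaged per region, and 2 against 2 libraries compared by two-sided exact permutation tests. Windows of 200 bp with 3 or more sites were tested over chromosomes 1 to 19, X and Y with edgeR 4.0.16 (quasi-likelihood test, library terms, Benjamini-Hochberg adjustment). limma 3.58.1 (log2 of methylated plus 2 over unmethylated plus 2 calls, from the deposited counts) and Fisher's exact test were alternatives. The fits were tested on simulated data. Python 3.11.15, scipy 1.17.1 and R 4.3.3 were used.

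Windows were named if among the 5 largest differences, the 5 lowest p or the 5 levels nearest 50%, sites if at borders of low stretches or in the promoters. Sites of the windows with the largest differences and the dense window in Man2a2 were named after their values were seen. The locus, intervals and rules were chosen with earlier results of these data known. The GRCm38 genes were not converted to mm9: promoter sequences were placed by their CG spacing alone.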

Additional observations from a re-analysis of the deposited data

Results flagged for a closer look

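CG sites below the minimum of 5 reads, which no test used, held methylated calls in many places, and those at Furin outside the CpG-dense start are given here. At the upstream Furin start, 100% of the calls were methylated, but these were 5 calls, all in swim-up replicate 1, and the other 3 libraries had none. The 5 calls lay at different neighbouring CG sites, so they may come from fewer reads. In the Furin gene up to 87546719, 652 of 733 calls at the 212 sites below the minimum were methylated, or 88.9%, beside 93.6% to 97.2% of the calls in each library at the 11 covered sites.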

How the results depend on the processing

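The difference in mean level between the fractions was the least stable result. For the locus it changed sign at sites with at least 20 reads (0.286 points), on the minus strand alone (0.00693) and without swim-up replicate 1 (range over libraries left out -0.523 to 0.0901), and for Man2a2 at 20 reads (0.457). For the Furin start it ranged from -2.85 to 1.05 points, changing sign without swim-up replicate 2, and no site there had 10 reads in every library. The Man2a2 stretch measured 682 bp at 10 reads and 640 bp at 20 reads, where fewer sites were covered, and the Furin stretch was 1867 bp with neighbours up to 1000 bp apart. At 10 or 20 reads no Furin stretch of 10 sites remained. Windows of at most 25% made up 36.7% and 38.9% at 10 and 20 reads, and 35.4% to 36.6% with a library left out.

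No locus window was called except by Fisher's exact test on calls pooled within a fraction, which leaves out the spread between libraries. It called 4 of 82 locus windows, 87484401, 87504201, 87522601 and 87558401 (adjusted p 0.000892 to 0.0476 against 0.680 to 1 in edgeR), and 2397 of 316993 windows in all. In all windows, edgeR called 2 at 20 reads and 4 with windows of 500 bp, limma 1, and edgeR 1 to 5 with a library left out (1 without HRCS replicate 2). Locus windows at an unadjusted p under 0.05 numbered 1 of 36 at 20 reads and 4 to 8 with a library left out, 4 without HRCS replicate 2. At 20 reads that 1 window was 2.78% of the locus windows, against 4.36% of all windows at the same unadjusted p. In edgeR's test at 10 reads the shares were 10% against 4.45%, and with windows of 500 bp 8.62% against 5.11%. The locus share was thus below that of all windows at 20 reads, but above it at 10 reads and with windows of 500 bp. With a library left out, a fraction rests on a single library, so the counts of those fits were not compared with all windows. The difference of the window at 87522601 was -32.5 to -28.4 points with a library left out.

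The replicate numbers are shared between fractions, and the labels do not say whether they mark pairs. The differences between replicates did not go together (r = -0.00176 over all windows, a description). That value cannot decide the question, since counting error within windows can hide a pairing. With a replicate block in edgeR's test, 11 of 316993 windows and 0 of 82 locus windows were called. At an unadjusted p under 0.05 there were 7 locus windows (8.54%), against 4.07% of all windows. In this balanced design the block leaves the differences in mean level as they are by construction (-0.216, -0.404, -0.791 and -0.900 points for the locus, Man2a2, Furin and the Furin start), so this says nothing about their stability. With 2 libraries per fraction a permutation test without the block cannot fall below p = 0.33. With the block, the lowest p of the permutation test was 0.5, for the Man2a2 and the Furin interval. The cause of these changes was not tested.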

Other observations

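At the far end of the region, beyond Furin, 7 of 8 sites from 87567818 to 87568314 had mean levels of at most 25%, between methylated sites at 87564201 to 87564400 and at 87569660. The window 87568201 to 87568400 had levels of 16.8%, 13.8%, 7.28% and 15.4%.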
